A study of Drosophila melanogaster with 10 samples.

Results

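The tricarboxylic acid (TCA) cycle enzymes described here are citrate synthase (kdn), mitochondrial aconitase (mAcon1), the 3 subunits of NAD-dependent isocitrate dehydrogenase (Idh3a, Idh3b, Idh3g), fumarase (Fum1) and the malate dehydrogenases Mdh1 and Mdh2. They were taken by name, and all 8 were found among 14310 genes: 7 by the name in the deposited gene table, and Idh3g, listed there as CG5028, by its identifier. Expression was measured by RNA sequencing of whole midguts from adult male Drosophila melanogaster fed yeast alone, at 25 °C, and dissected on day 7 after eclosion. The tested males carried mex-GAL4, a driver active in enterocytes, the cells that absorb nutrients, with the transgene UAS-dHNF4 RNAi NIG9310-R2, each as 1 copy over a wild-type chromosome. Control males, w1118, carried 1 copy of the same transgene and no driver. Each group has 5 libraries labelled as biological replicates, each from 20 midguts. The driver is present in the tested males alone, and a driver without the transgene is not among the groups, so effects of the driver and of the knockdown cannot be told apart.

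The cycle runs in the mitochondrial matrix, where it oxidises acetyl groups from sugars, fats and amino acids and passes the electrons to the respiratory chain as NADH and FADH2. Citrate that leaves the mitochondrion supplies the cytosol with acetyl-CoA for lipid synthesis, and cytosolic enzymes that use isocitrate and malate make NADPH. Hnf4 is the fly member of a nuclear receptor family known for control of lipid and sugar metabolism. Enterocytes are the cells of the gut in which absorbed lipid is handled.

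Values are TPM, each transcript's share of its library scaled to a fixed total. The number of reads behind a TPM value is not kept in it and is unknown here. Over the 8784 genes tested the median log2 fold change was 0.55 on the TPM scale, a 1.46-fold rise of the median gene. After median-of-ratios scaling, which divides each library by its typical ratio to the others, it was 0.01. The scaling divisors were 1.21 to 1.25 in the libraries labelled dHNF4 RNAi and 0.757 to 0.912 in the controls, with control replicate 2 at 0.912 and the other controls at no more than 0.827. Hnf4 itself measured 45.6 ± 2.38 TPM in the libraries labelled dHNF4 RNAi and 38.8 ± 4.92 TPM in the controls (SD, n = 5 each). Its log2 fold change was 0.24 on the TPM scale (limma adjusted p = 0.0199) and the sign turned after median-of-ratios scaling, at -0.35 (limma adjusted p = 0.000815). The groups overlapped for Hnf4 on the TPM scale. After median-of-ratios scaling Hnf4 was lower in all libraries labelled dHNF4 RNAi than in any control, as were 29.4% of all genes tested. In the authors' deposited table Hnf4 was at -0.21 (unadjusted p = 0.419). The targeted transcript therefore does not settle the labels, and each direction given rests on the sample labels as they stand. In RNA from a whole organ, fewer cells of a type and less RNA per cell cannot be told apart.

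The 8 transcripts did not move together. Relative to the all-gene median, Mdh1, Idh3a, mAcon1 and kdn were lower in the libraries labelled dHNF4 RNAi. Idh3b, Idh3g, Fum1 and Mdh2 lay close to that median. On the TPM scale 4 of the 8 rose, Idh3b, Idh3g, Fum1 and Mdh2, and the other 4 did not pass the test, against 66.9% of all genes tested called higher and 16.3% called lower. None was called lower with limma on that scale, also at an unadjusted p under 0.05, while the authors' deposited table has 2 with a negative fold change at an unadjusted p under 0.05 (17.9% of its genes). With median-of-ratios scaling 5 fell, kdn, mAcon1, Idh3a, Mdh1 and Fum1, and none rose with limma, also at an unadjusted p under 0.05, against 35.6% of all genes called higher and 35.8% called lower. The median log2 fold change of the 8 was 0.32 on the TPM scale, against 0.55 for all genes, and -0.28 under median-of-ratios scaling, against 0.01 for all genes.

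**Figure D1:**
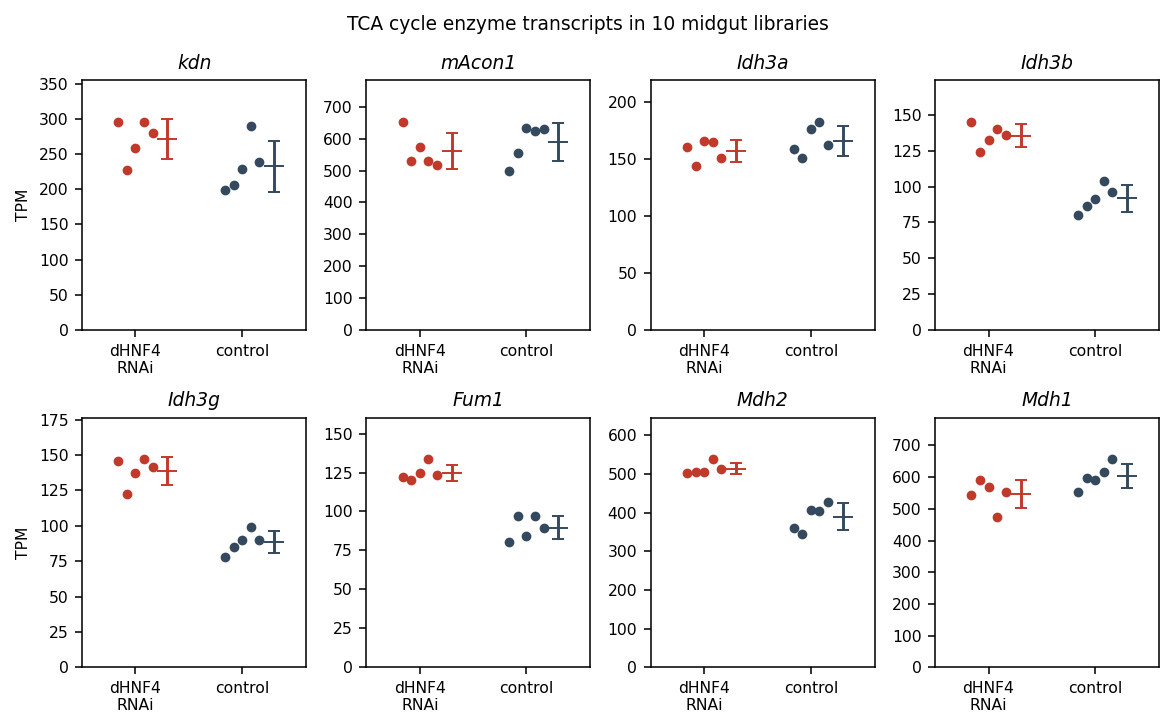
TPM of the 8 TCA cycle enzyme transcripts, with 1 point per library (5 labelled dHNF4 RNAi on the left, 5 control on the right of each panel) and a bar beside them for the mean and SD; each axis starts at 0. The groups are apart for Idh3b, Idh3g, Fum1 and Mdh2 and overlap for kdn, mAcon1, Idh3a and Mdh1.

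In level, all 8 were abundant transcripts of the midgut. In the libraries labelled dHNF4 RNAi the order of mean TPM, from the highest down, was mAcon1, Mdh1, Mdh2, kdn, Idh3a, Idh3g, Idh3b and Fum1. The ranges of mAcon1, Mdh1 and Mdh2 overlapped their neighbours in this order, and so did those of Idh3a, Idh3g, Idh3b and Fum1. In the controls the order was Mdh1, mAcon1, Mdh2, kdn, Idh3a, Idh3b, Fum1 and Idh3g, and there only Mdh1 with mAcon1 and the last 3 overlapped their neighbours. The 8 together held 2447 ± 76.9 TPM in the libraries labelled dHNF4 RNAi and 2248 ± 176 TPM in the controls (SD, n = 5 each). That sum depended on the scaling, with 1986 ± 49.0 against 2774 ± 288 in the same order of groups after median-of-ratios scaling.

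The entry of the cycle is citrate synthase, which joins acetyl-CoA to oxaloacetate. Its gene kdn (FBgn0261955, chromosome X, 6350629 to 6361323, plus strand, BDGP6.54) measured 295.7, 228, 258, 295 and 280.1 TPM in the libraries labelled dHNF4 RNAi, and 199, 206, 229, 289.7 and 238 TPM in control replicates 1 to 5. The groups overlapped, because control replicate 4 stood above the other controls and dHNF4 RNAi replicate 2 below the rest of its group. The log2 fold change was 0.23 on the TPM scale (SE 0.108, limma adjusted p = 0.0688). After median-of-ratios scaling it was -0.37 (SE 0.115, limma adjusted p = 0.0138), a fall in which the groups still overlapped. Leaving out control replicate 4 gave 0.31 on the TPM scale (limma adjusted p = 0.00935), and leaving out dHNF4 RNAi replicate 2 gave 0.29 (limma adjusted p = 0.0266). The direction of kdn thus depends on the scaling.

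Aconitase, an iron-sulfur enzyme, converts citrate to isocitrate. Its mitochondrial gene mAcon1 (FBgn0010100, chromosome 2L, 21168570 to 21173185, plus strand, BDGP6.54) measured 653, 528, 573, 529 and 516 TPM in the libraries labelled dHNF4 RNAi, and 499, 554, 634, 624 and 629.9 TPM in the controls. The groups overlapped, with the highest and the lowest value both held by a replicate 1. The log2 fold change was -0.070 on the TPM scale (SE 0.088, limma adjusted p = 0.474). Under median-of-ratios scaling mAcon1 fell by 0.67 (SE 0.093, limma adjusted p = 7.07e-05), to 454 ± 40.7 against 726 ± 88.7 scaled TPM in the controls, and the groups no longer overlapped. Of all genes tested, 29.4% were lower without overlap on that scale, and of the 8 enzymes mAcon1, Idh3a and Mdh1.

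Isocitrate dehydrogenase of the NAD-dependent type is built from a catalytic alpha subunit and, as known from mammals, regulatory beta and gamma subunits. Idh3a (FBgn0027291, chromosome X, 19518428 to 19521810, minus strand, BDGP6.54), the alpha subunit gene, measured 160.3, 144, 165, 165 and 150.5 TPM in the libraries labelled dHNF4 RNAi, and 158, 150.5, 176, 182 and 162 TPM in the controls. The groups overlapped, with a log2 fold change of -0.078 on the TPM scale (SE 0.067, limma adjusted p = 0.301). Under median-of-ratios scaling Idh3a fell by 0.68 (SE 0.081, limma adjusted p = 2.45e-05), to 127 ± 6.47 against 205 ± 23.3 scaled TPM in the controls, with no overlap.

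The other subunits behaved differently from Idh3a. Idh3b (FBgn0038922, chromosome 3R, 22016391 to 22019382, minus strand, BDGP6.54) measured 145, 124, 133, 140.1 and 136 TPM in the libraries labelled dHNF4 RNAi, and 80.2, 86.4, 91.7, 104 and 96.3 TPM in the controls. Idh3g (FBgn0039358, chromosome 3R, 25680845 to 25683780, plus strand, BDGP6.54) measured 146, 123, 137, 147 and 142 TPM in the libraries labelled dHNF4 RNAi, and 78.2, 85.0, 89.9, 99.0 and 90.1 TPM in the controls. For both, every library labelled dHNF4 RNAi was above every control, as for Fum1 and Mdh2, where 60.3% of all genes tested were higher without overlap on that scale. Idh3b rose by 0.56 (SE 0.075, limma adjusted p = 2.51e-05) and Idh3g by 0.65 (SE 0.074, limma adjusted p = 6.9e-06) on the TPM scale, about as much as the median gene. Neither passed under median-of-ratios scaling, where Idh3b was at -0.034 (limma adjusted p = 0.723) and Idh3g at 0.050 (limma adjusted p = 0.579). In the annotation Idh3g shares 158 bases with the abundant ribosomal protein gene RpL27 on the opposite strand, and whether the authors' estimates used strand is not given in the sources used here.

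Fumarase hydrates fumarate to malate, and Mdh2, the mitochondrial malate dehydrogenase, regenerates oxaloacetate. Fum1 (FBgn0286222, chromosome X, 6678424 to 6681845, plus strand, BDGP6.54) measured 122, 120.5, 125, 133 and 124 TPM in the libraries labelled dHNF4 RNAi, and 80.7, 96.8, 84.0, 97.3 and 89.6 TPM in the controls. Mdh2 (FBgn0262559, chromosome 3R, 18226396 to 18228718, plus strand, BDGP6.54) measured 503, 506, 505, 538 and 513 TPM in the libraries labelled dHNF4 RNAi, and 359.6, 345, 408, 404 and 427 TPM in the controls. Both groups were apart for both genes, with all libraries labelled dHNF4 RNAi higher. On the TPM scale Fum1 rose by 0.48 (SE 0.065, limma adjusted p = 2.81e-05) and Mdh2 by 0.40 (SE 0.066, limma adjusted p = 0.000131), and both turned under median-of-ratios scaling. There Fum1 was at -0.12 (limma adjusted p = 0.047), a fall that lost its call in 7 of 10 fits that left out 1 library, and Mdh2 at -0.20 (limma adjusted p = 0.0675). Fum1 overlaps ND-ASHI, a gene of respiratory complex I, by 695 bases on the opposite strand, and ND-ASHI measured 161 TPM in the libraries labelled dHNF4 RNAi and 108 TPM in the controls on average. The effect of this overlap was not tested.

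Mdh1 encodes the cytosolic malate dehydrogenase, which takes part in moving reducing equivalents between cytosol and mitochondrion. Mdh1 (FBgn0262782, chromosome 2L, 10393774 to 10396332, minus strand, BDGP6.54) measured 544, 591, 568, 476 and 553 TPM in the libraries labelled dHNF4 RNAi, and 554, 598, 591, 615 and 656 TPM in the controls. The groups overlapped, with dHNF4 RNAi replicate 4 the lowest of all. The log2 fold change was -0.14 on the TPM scale (SE 0.070, limma adjusted p = 0.0764). Leaving out control replicate 1 moved it to -0.17, where it passed (limma adjusted p = 0.0392). Under median-of-ratios scaling Mdh1 fell by 0.74 (SE 0.077, limma adjusted p = 7.82e-06), to 444 ± 35.8 against 744 ± 64.4 scaled TPM in the controls, the largest fall of the 8 on that scale.

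**Figure D2:**
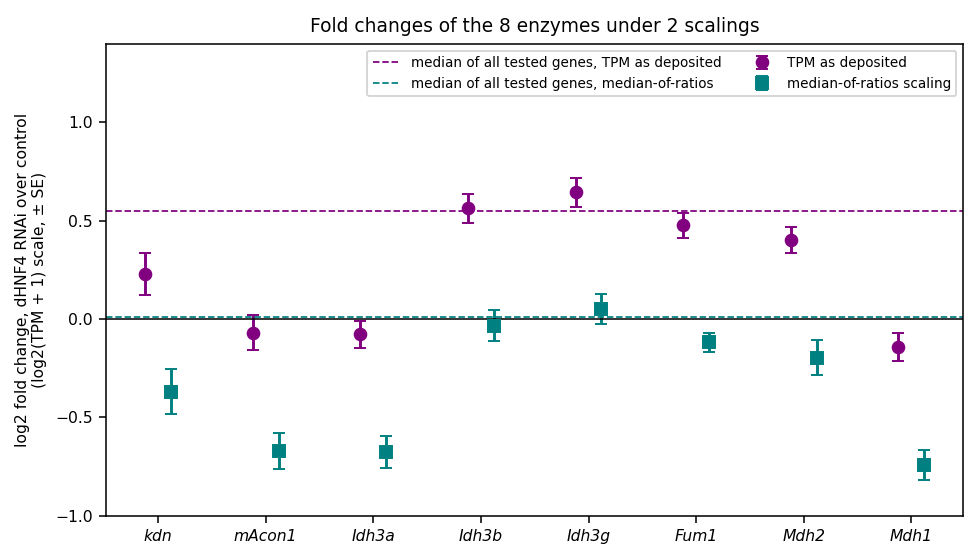
Log2 fold change, dHNF4 RNAi over control, of the 8 transcripts with SE, on the TPM scale (circles) and after median-of-ratios scaling (squares), with dashed lines for the median of all genes tested on each scale (0.55 and 0.01). Idh3b and Idh3g lie within 0.10 of the all-gene median on both scales, while Mdh1, Idh3a and mAcon1 lie at least 0.62 below it.

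The authors' deposited table carries in its title the name of the normalization tool RUVSeq, but its scaling is not stated in the sources used here. The log2 fold changes in the authors' deposited table were -0.691 for mAcon1 (unadjusted p = 0.0138) and -0.518 for Mdh1 (unadjusted p = 0.0496). In the authors' deposited table kdn was at -0.41 (unadjusted p = 0.183) and Idh3a at -0.422 (unadjusted p = 0.103). The other 4 had fold changes of 0.039 to 0.125 in the authors' deposited table, with unadjusted p of 0.636 to 0.881. Thus 2 of 8 had a negative fold change at an unadjusted p under 0.05, against 17.9% of all genes in that table. After Benjamini-Hochberg adjustment over that table, mAcon1 alone of the 8 passed, at 0.0485, as did 28.7% of all its genes.

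Because the direction of several transcripts moved with the scaling, the ratio of 2 transcripts within a library was taken as well, since any scaling of the library cancels in it. Of 8 ratios, 4 differed between the groups without overlap: Idh3a/Idh3b, Idh3a/Idh3g, Idh3b/Idh3g and Mdh1/Mdh2. For each the exact permutation test, two-sided, gave p = 0.00794, which is the lowest value possible with 252 assignments of the libraries, and 0.0159 after adjustment over the 8 ratios. The ratios among the Idh3 transcripts share their members, so they are not separate results. Of 8784 single genes tested, 6326 were without overlap on the TPM scale and 5097 after median-of-ratios scaling. How often ratios of other gene pairs are without overlap was not tested.

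The alpha subunit of isocitrate dehydrogenase lost ground to its partners. Idh3a/Idh3b was 1.10, 1.16, 1.24, 1.18 and 1.10 in the libraries labelled dHNF4 RNAi, and 1.97, 1.74, 1.92, 1.75 and 1.68 in the controls. Idh3a/Idh3g averaged 1.13 ± 0.056 in the libraries labelled dHNF4 RNAi and 1.88 ± 0.108 in the controls (SD, n = 5 each). The log2 ratio fell by 0.65 against Idh3b and by 0.73 against Idh3g, so that the alpha transcript was nearly level with the others in the libraries labelled dHNF4 RNAi. Between Idh3b and Idh3g the ratio hardly left 1 in any library, with 0.953 to 1.01 in the libraries labelled dHNF4 RNAi and 1.02 to 1.07 in the controls. Its log2 difference of -0.084 was small, yet the groups did not overlap.

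The cytosolic malate dehydrogenase transcript lost ground to the mitochondrial one in the same way. Mdh1/Mdh2 was 1.08, 1.17, 1.12, 0.885 and 1.08 in the libraries labelled dHNF4 RNAi, and 1.54, 1.73, 1.45, 1.52 and 1.54 in the controls. All controls lay above all libraries labelled dHNF4 RNAi, and the log2 ratio fell by 0.55. Replicate 4 of the libraries labelled dHNF4 RNAi was the single library in which Mdh2 exceeded Mdh1.

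All ratios between successive steps overlapped between the groups. The ratio mAcon1/kdn averaged 2.08 ± 0.240 in the libraries labelled dHNF4 RNAi and 2.55 ± 0.243 in the controls, with overlap (two-sided exact permutation p = 0.0317, 0.0508 adjusted over the 8 ratios). Without dHNF4 RNAi replicate 1 its adjusted exact p was 0.0423, and without control replicate 4 it was 0.0254. The ratio kdn/Mdh2 averaged 0.529 ± 0.051 in the libraries labelled dHNF4 RNAi and 0.597 ± 0.069 in the controls (exact permutation p = 0.0873, 0.116 adjusted). Without dHNF4 RNAi replicate 1 its adjusted exact p was 0.0254. The ratio Mdh2/Fum1 averaged 4.11 ± 0.072 in the libraries labelled dHNF4 RNAi and 4.36 ± 0.525 in the controls (exact permutation p = 0.333, 0.381 adjusted), and without control replicate 2 its adjusted exact p was 0.0254. The remaining sets with 1 library left out did not pass, 8 for mAcon1/kdn and 9 each for kdn/Mdh2 and Mdh2/Fum1. The ratio Idh3a/mAcon1 overlapped between the groups, at 0.282 ± 0.024 in the libraries labelled dHNF4 RNAi and 0.283 ± 0.023 in the controls (exact permutation p = 0.905, also 0.905 adjusted).

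**Figure D3:**
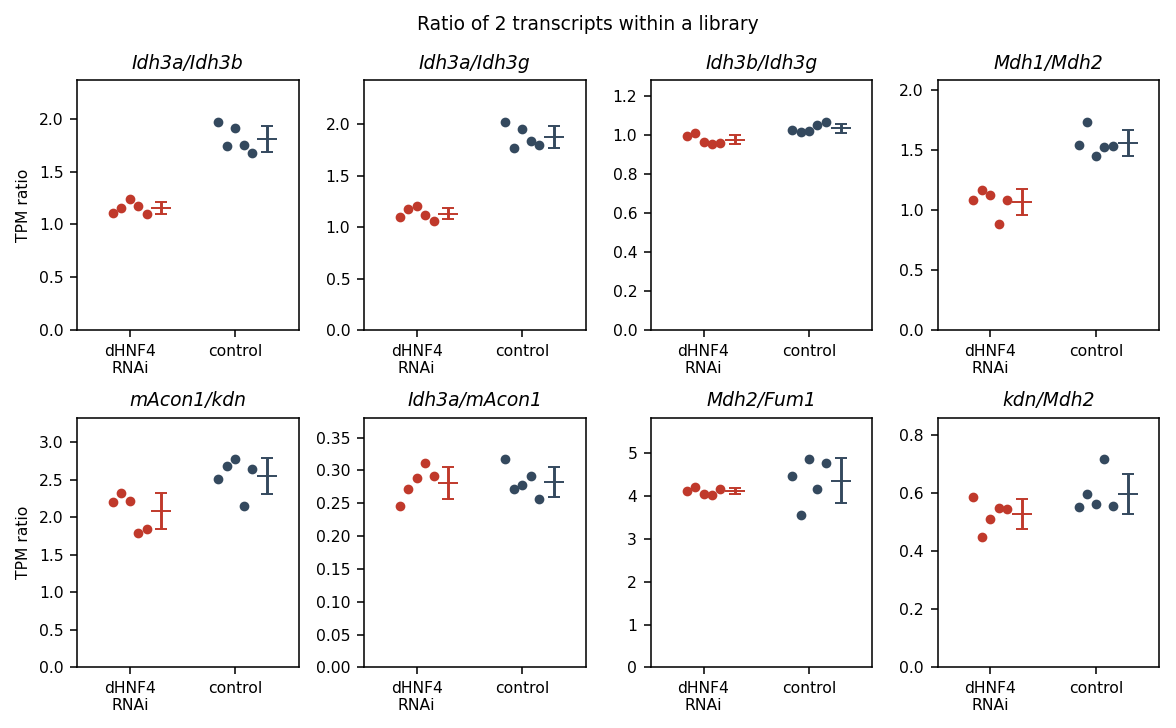
Ratio of the TPM of 2 transcripts within each library, with 1 point per library (5 labelled dHNF4 RNAi on the left, 5 control on the right of each panel) and the mean and SD beside them; each axis starts at 0. The ratios Idh3a/Idh3b, Idh3a/Idh3g and Mdh1/Mdh2 are lower in all 5 libraries labelled dHNF4 RNAi than in any control, and Idh3a/mAcon1 overlaps between the groups.

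The other 10 enzymes of the cycle make up the 2-oxoglutarate dehydrogenase complex, succinyl-CoA synthetase and succinate dehydrogenase. On the TPM scale 9 of the 10 rose and 1, Ogdh, fell. Among all genes tested, 66.9% were called higher and 16.3% lower there. With median-of-ratios scaling SdhB alone rose, and Ogdh and ScsbetaG fell, where 35.6% of all genes were called higher and 35.8% lower. Their median log2 fold change was 0.59 on the TPM scale and -0.011 under median-of-ratios scaling, next to the all-gene medians of 0.55 and 0.011. Ogdh, for the first enzyme of the 2-oxoglutarate dehydrogenase complex, averaged 118 ± 10.6 TPM in the libraries labelled dHNF4 RNAi and 150.0 ± 17.5 TPM in the controls. It fell on both scales, with -0.35 on the TPM scale (SE 0.092, limma adjusted p = 0.00432) and -0.94 under median-of-ratios scaling (limma adjusted p = 2.51e-06), and was at -0.939 in the authors' deposited table.

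The partners of Ogdh in that complex stayed close to the all-gene median, as Idh3b and Idh3g did. CG5214, annotated as alpha-KGDHC, averaged 136 ± 6.34 TPM in the libraries labelled dHNF4 RNAi and 85.0 ± 5.72 TPM in the controls, and CG7430, the E3 component, averaged 173 ± 7.60 and 116 ± 7.76 TPM in the same order of groups. The ratio Ogdh/CG5214, chosen after its values were seen and given without a test, was 0.809 to 0.961 in the libraries labelled dHNF4 RNAi and 1.42 to 1.99 in the controls. Of succinyl-CoA synthetase, Scsalpha1 was at 0.60 and ScsbetaA at 0.74 on the TPM scale, and at 0.0038 and 0.14 with median-of-ratios scaling, where neither passed. ScsbetaG, the GDP-forming beta subunit, rose by 0.36 on the TPM scale (limma adjusted p = 0.0011) and fell to -0.23 after median-of-ratios scaling (limma adjusted p = 0.0457). Of the 4 subunits of succinate dehydrogenase, which also belongs to the respiratory chain, SdhB rose on both scales, by 0.79 (limma adjusted p = 1.61e-07) and by 0.19 (limma adjusted p = 0.0258). SdhA, SdhC and SdhD rose by 0.46, 0.53 and 0.65 on the TPM scale, and after median-of-ratios scaling they were at -0.14, -0.072 and 0.049, none of the 3 called.

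Most paralogs of these enzymes were close to 0. Of 16 looked for, 13 were below 1 TPM in every library, the highest of them at 0.659 TPM, and these include mAcon2, Fum2, Fum3, Fum4, SdhAL and SdhBL. Fum2 overlaps the end of Fum1 by 79 bases on the same strand and averaged 0.263 TPM in the libraries labelled dHNF4 RNAi and 0.269 TPM in the controls. The cytosolic aconitase homologues Irp-1A and Irp-1B were expressed and moved apart on both scales. Irp-1A rose by 0.69 on the TPM scale (limma adjusted p = 4.99e-07) and by 0.10 under median-of-ratios scaling (limma adjusted p = 0.0338). Irp-1B fell by 0.43 on the TPM scale (limma adjusted p = 0.0014) and by 1.02 under median-of-ratios scaling (limma adjusted p = 2.88e-06).

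**Figure D4:**
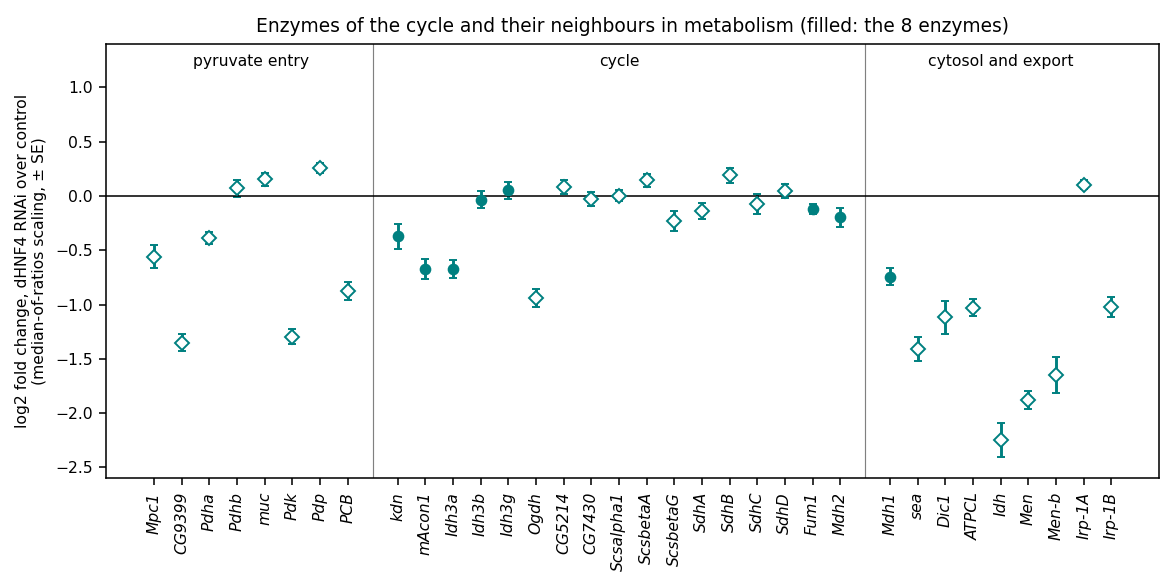
Log2 fold change, dHNF4 RNAi over control, after median-of-ratios scaling, with SE. On the left are genes that feed the cycle, and in the middle the 17 mitochondrial enzymes in the order of the cycle. On the right, headed cytosol and export, are export, NADP-linked or cytosolic genes linked to the cycle. Filled circles are the 8 enzymes, open diamonds the others. Most of the cycle lies near 0, kdn, mAcon1, Idh3a and Ogdh lie below it, and Idh and Men are the lowest of the genes drawn.

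Among the genes listed near the cycle, the steepest decreases on both scales were in Idh, Men and Men-b. They encode NADP-linked enzymes that use isocitrate or malate. Their list of 10 genes covers such enzymes and the export of citrate and malate. The list also holds ATPCL, which is not a carrier gene, and Nmdmc, whose enzyme does not use these substrates. Of the 10, 8 were tested, and 6 fell and 1, Nmdmc, rose on the TPM scale. With median-of-ratios scaling 7 fell and limma called none higher (none also at an unadjusted p under 0.05, nor in the authors' deposited table). Of all genes tested, 16.3% were called lower on the TPM scale and 35.8% after median-of-ratios scaling. The median log2 fold change of the 8 was -0.67 on the TPM scale and -1.26 under median-of-ratios scaling, beside 0.55 and 0.011 for all genes. Idh, the NADP-dependent isocitrate dehydrogenase, averaged 483 ± 74.0 TPM in the libraries labelled dHNF4 RNAi and 1529 ± 338 TPM in the controls, and fell by 1.65 on the TPM scale (SE 0.148, limma adjusted p = 1.04e-06). The ratio Idh/Idh3a, chosen after its values were seen and given without a test, was 2.50 to 3.76 in the libraries labelled dHNF4 RNAi and 7.44 to 12.6 in the controls.

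The malic enzyme genes and the mitochondrial citrate carrier followed the same direction. Men averaged 160.0 ± 20.3 TPM in the libraries labelled dHNF4 RNAi and 389 ± 40.3 TPM in the controls, a fall by 1.28 (SE 0.1004, limma adjusted p = 3.76e-07). Men-b averaged 420.0 ± 86.8 TPM in the libraries labelled dHNF4 RNAi and 864 ± 149 TPM in the controls, a fall by 1.05 (SE 0.154, limma adjusted p = 5.53e-05). The citrate carrier gene sea averaged 163 ± 17.5 TPM in the libraries labelled dHNF4 RNAi and 287 ± 33.6 TPM in the controls, a fall by 0.81 (SE 0.096, limma adjusted p = 9.83e-06). For these 3 genes and Idh all libraries labelled dHNF4 RNAi were below all controls on both scales, a pattern that 11.7% of all genes tested showed on the TPM scale. ATPCL, the ATP citrate lyase gene, fell by 0.43 (limma adjusted p = 0.000815) and the dicarboxylate carrier gene Dic1 by 0.52 (limma adjusted p = 0.00937) on the TPM scale.

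Genes that bring pyruvate into the cycle split. Of 8, 4 rose and 3 fell on the TPM scale. After median-of-ratios scaling 2 were higher and 5 lower. The shares of all genes tested were 66.9% higher and 16.3% lower on the TPM scale, and 35.6% and 35.8% after scaling. The median of these 8 was 0.12 and -0.47 on the log2 scale, beside 0.55 and 0.011 for all genes. Pdp, for pyruvate dehydrogenase phosphatase, rose by 0.82 on the TPM scale (limma adjusted p = 6.11e-07) and by 0.26 under median-of-ratios scaling (limma adjusted p = 0.000316). The opposing kinase gene Pdk fell by 0.70 (limma adjusted p = 6.97e-06) and by 1.30 (limma adjusted p = 6.57e-08) on those scales. The pyruvate dehydrogenase genes Pdhb and muc rose by 0.67 and 0.75 on the TPM scale, and under median-of-ratios scaling muc rose by 0.15 (limma adjusted p = 0.0398) and Pdhb did not pass at 0.069. Pdha, another gene of that complex, rose by 0.21 on the TPM scale (limma adjusted p = 0.00554). Under median-of-ratios scaling Pdha was lower, at -0.39 (limma adjusted p = 6.66e-05). CG9399, annotated as dMPC2 of the mitochondrial pyruvate carrier, fell by 0.76 (limma adjusted p = 2.2e-06) and by 1.35 (limma adjusted p = 1.3e-07). Its partner Mpc1 was at 0.037 on the TPM scale (limma adjusted p = 0.717) and fell by 0.56 under median-of-ratios scaling (limma adjusted p = 0.000743).

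Enzymes that link the cycle to amino acids stood at a median of -0.14 (log2 fold change, TPM scale) and of -0.73 after median-of-ratios scaling, beside 0.55 and 0.011 for all genes. Of 10, 3 rose and 4 fell on the TPM scale. With the other scaling 1 was called higher and 7 lower. All genes tested were called higher in 66.9% and lower in 16.3% of cases on the TPM scale, and in 35.6% and 35.8% with the other scaling. The glutamate dehydrogenase gene Gdh averaged 113 ± 17.6 TPM in the libraries labelled dHNF4 RNAi and 233 ± 50.8 TPM in the controls, a fall by 1.01 on the TPM scale (limma adjusted p = 7.51e-05). The glutamine synthetase gene Gs2 fell by 0.76 on the TPM scale (limma adjusted p = 9.02e-06). CG1640, annotated as ALT, fell by 0.47 (limma adjusted p = 4.86e-05). Pepck2, of phosphoenolpyruvate carboxykinase, rose by 1.30 on the TPM scale (limma adjusted p = 5.47e-07) and by 0.76 under median-of-ratios scaling (limma adjusted p = 0.000102).

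Aconitase and succinate dehydrogenase need iron-sulfur clusters, and of 10 genes for cluster making and succinate dehydrogenase assembly 7 rose and none fell on the TPM scale (none also at an unadjusted p under 0.05, nor in the authors' deposited table). After median-of-ratios scaling 4 of the 10 were higher and 4 lower. These counts were close to the shares of all genes called higher, 66.9% on the TPM scale and 35.6% after scaling, and to the 35.8% called lower after scaling. The median of the 10 was 0.56 and -0.0052 on the log2 scale, near the 0.55 and 0.011 of all genes. The 4 that rose on both scales were the cysteine desulfurase gene Nfs1 (99.6 ± 4.21 TPM in the libraries labelled dHNF4 RNAi and 47.5 ± 2.68 TPM in the controls), the frataxin gene fh, the ferredoxin gene Fdx1 and the assembly factor gene Sdhaf3. Nfs1 rose by 1.05 on the TPM scale (limma adjusted p = 3.58e-08) and by 0.46 under median-of-ratios scaling (limma adjusted p = 3.36e-05). Of 12 glycolytic enzymes 4 rose and none fell on the TPM scale (none also at an unadjusted p under 0.05, and 1 in the authors' deposited table), and 1 was higher and 9 were lower after median-of-ratios scaling. The 4 are a smaller share than the 66.9% of all genes called higher on the TPM scale, and 35.8% of all genes were called lower after scaling. The median of the 12 was 0.14 and -0.46 on the log2 scale, beside 0.55 and 0.011 for all genes. The 1 higher after scaling was Gapdh1, of glyceraldehyde-3-phosphate dehydrogenase, at 668 ± 47.3 TPM in the libraries labelled dHNF4 RNAi and 373 ± 25.0 TPM in the controls. Hex-A rose by 1.00 and Gapdh2 and Eno by 0.31 and 0.43 on the TPM scale, and under the other scaling Gapdh2 and Eno turned to -0.29 and -0.18 while Hex-A did not pass at 0.40.

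Within the groups, the 4 genes most like the mean of the 8 enzymes across the 10 libraries, among 5616 with a mean of at least 10 TPM and outside the lists, were CG13325, Cyt-c1, c12.2 and Mitofilin. The likeness was Pearson's r of log2 values after median-of-ratios scaling and centring of each group, and was 0.976, 0.974, 0.962 and 0.955, as a description of libraries that share their scaling. CG13325, the most alike, had a log2 fold change of -0.68 on the TPM scale (limma adjusted p = 0.02). Under median-of-ratios scaling it was at -1.28 (limma adjusted p = 0.00143). Cyt-c1, for cytochrome c1 of respiratory complex III, and Mitofilin, for a protein of the inner mitochondrial membrane, had log2 fold changes of 0.51 and 0.65 on the TPM scale, and -0.092 and 0.057 under median-of-ratios scaling. On those scales c12.2 was at 0.54 and -0.028.

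Markers of cell types moved between the groups as well. Their counts stand beside 66.9% of all genes called higher and 16.3% lower on the TPM scale, and 35.6% higher and 35.8% lower after median-of-ratios scaling. The 8 markers of stem cells and enteroblasts summed to 181 to 206 TPM in the libraries labelled dHNF4 RNAi and 18.5 to 47.5 TPM in the controls, and all 8 rose on both scales. The highest control sum was that of replicate 2. The 9 enterocyte markers summed to 49562 to 61645 TPM in the libraries labelled dHNF4 RNAi and 63484 to 75474 TPM in the controls, with 3 higher and 3 lower on the TPM scale, and 3 higher and 6 lower under median-of-ratios scaling. Most of this sum came from the digestive enzyme genes alphaTry, betaTry, Amy-p and Mal-A1. On the TPM scale Amy-p and Mal-A1 were lower without overlap, while mex1, nub and Npc1b were higher without overlap. Of all genes tested, 11.7% were lower and 60.3% higher without overlap there. Visceral muscle markers summed to 2466 to 2909 TPM in the libraries labelled dHNF4 RNAi and 2556 to 2959 TPM in the controls, with 2 of 13 higher and 4 lower, and 1 higher and 11 lower under median-of-ratios scaling. The 9 fat body markers summed to 132 to 164 TPM in the libraries labelled dHNF4 RNAi and 237 to 366 TPM in the controls, most of it from to, and all 4 tested fell. Their part in the values of the 8 enzymes was not tested. Of 10 enteroendocrine markers 4 rose and 4 fell, and 1 rose and 6 fell after scaling. Of 7 Malpighian tubule markers 1 rose and 1 fell on both scales, and of the 5 tracheal ones 3 were tested, with 1 lower on the TPM scale and 3 lower after scaling. Hemocyte markers summed to 5.31 to 10.3 TPM, testis markers to at most 4.36 TPM and flight muscle markers to 9.78 to 12.9 TPM over all libraries, the last from Strn-Mlck, with Act88F, fln and TpnC4 below 1 TPM in every library.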

How the data were processed

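Per the labels' protocols, RNA was made into libraries with a stranded TruSeq kit. The authors deposited TPM for 14310 genes (975327 to 982443 per library), and, for 10494 genes, log2 fold changes with unadjusted p-values. The submitters' processing notes name FastQC, Trim Galore, kallisto, edgeR and the build BDGP6, with no versions or roles. Across genes, r was at least 0.968 between libraries within a group and at most 0.925 between groups.

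TPM were analysed as log2(TPM + 1), which understates changes at low levels. Genes averaging 1 TPM or more (8784) were fitted with limma 3.58.1 in R 4.3.3 (mean-variance trend, two-sided, no covariate), and a call meant p under 0.05 after Benjamini-Hochberg adjustment over all of them. Nothing shows separate cultures or crosses behind the replicates, so p-values measure the spread between these libraries. Ratios used unlogged TPM with no pseudocount. The fit was checked on simulated data with known changes in a small part of the genes. No shift common to most genes was simulated, so the check cannot speak to the scaling. Coordinates are from Ensembl release 115 (BDGP6.54); the deposited tables hold none.

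The members and lists were chosen with earlier results of these data known, and the lists came from general knowledge. Named were all members, Hnf4, the other cycle enzymes, up to 4 called genes per further list by smallest adjusted p, and the 4 genes most alike. Mpc1, ATPCL, Dic1, Nmdmc, Pdk, Pdha and the ratios given without a test were added after their values were seen. Same-numbered libraries of the groups deviated together in 2 of 5 pairs, so the numbers were not taken as pairs.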

Additional observations from a re-analysis of the deposited data

Results flagged for a closer look

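Of 52 groups of 5 libraries examined (the 18 cycle enzymes and the 8 ratios in each group), 2 held a library far from the others, and chance gives about 1 such group in 20. Mdh2 in dHNF4 RNAi replicate 4 measured 538 TPM, where the other libraries labelled dHNF4 RNAi measured 503 to 513 TPM. The ratio kdn/Mdh2 in control replicate 4 was 0.716, where the other controls had 0.553 to 0.598, and kdn was highest among the controls in that library.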

How the results depend on the processing

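Scaling set most calls. Under median-of-ratios scaling 0 of the 8 were called higher (4 on the TPM scale) and 5 lower (0 on the TPM scale), and of the other 10 enzymes 1 was called higher and 2 lower. There Idh3b turned to -0.034, Fum1 to -0.12, Mdh2 to -0.20, kdn to -0.37 and Hnf4 to -0.35, and among the others CG7430 to -0.025, ScsbetaG to -0.23, SdhA to -0.14 and SdhC to -0.072. Idh3g was no longer called at 0.050, and mAcon1 (-0.67), Idh3a (-0.68) and Mdh1 (-0.74) gained a call. The summed difference was -788 scaled TPM, against 200 TPM as deposited. Leaving the 20 highest genes and those of the mitochondrial genome out of the library totals put the summed difference at -5.50. That rescaling called 3 lower, mAcon1 (-0.20), Idh3a (-0.20) and Mdh1 (-0.27). Quantile normalization called 1 lower, Idh3a (-0.24), raised kdn to a call (0.25) turned Hnf4 to -0.18 and left ScsbetaG without a call at 0.011 (limma adjusted p = 0.917). Hnf4 also lost its call in the rescaled totals, at 0.11 (limma adjusted p = 0.203), and without control replicate 5, at 0.19 (limma adjusted p = 0.0502). Why the scalings differ was not tested beyond the shift of the all-gene median.

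With the replicate number as a block (replicate block) kdn was called at 0.23 with adjusted p = 0.037, and no other call of the 8 changed. Same-numbered libraries correlated in their deviations from -0.32 to 0.36, and 2 of 10 correlated best with their own number. Ratios paired by number (replicate block, exact sign flips) kept differences of -0.65 for Idh3a/Idh3b, -0.73 for Idh3a/Idh3g, -0.084 for Idh3b/Idh3g and -0.55 for Mdh1/Mdh2, where no p below 0.0625 is possible.

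Leaving out each library gave 0 to 1 of the 8 called lower and 4 to 5 called higher on the TPM scale. Ranges were 0.18 to 0.31 for kdn, -0.17 to -0.094 for Mdh1, -0.36 to -0.25 for mAcon1/kdn, -0.21 to -0.11 for kdn/Mdh2, -0.15 to -0.036 for Mdh2/Fum1 and -0.045 to 0.040 for Idh3a/mAcon1, whose sign turned in 4 of 10. Under median-of-ratios scaling 4 to 6 of the 8 were called lower, with kdn, mAcon1, Idh3a and Mdh1 in all 10 fits. The pseudocounts, the filters and the other moderations changed none of these calls.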
